A study of Mus musculus with 16 samples.

Results

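Netrins are secreted or membrane-anchored cues that steer growing axons, and their receptors decide whether a growth cone is drawn in or turned away. The family described here comprised 10 genes, 4 ligands (Ntn1, Ntn4, Ntng1 and Ntng2) and 6 receptors (Dcc, Neo1, Unc5a, Unc5b, Unc5c and Unc5d), taken by gene symbol from the 24411 genes in the files. The family was selected on a result of these same mice, the difference in Unc5c between SCI + Atorvastatin and SCI + Vehicle. Values from that comparison are therefore a description of these animals with no test, and no p-value is given for Unc5c in any comparison. All 10 genes were among the 16091 genes whose average exceeded 1 TPM (transcripts-per-million, a level that allows for transcript length) in any group.

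RNA was sequenced from a 5 mm piece of thoracic spinal cord of female C57BL/6J mice, and the labels give an age of 12 wk at injury. Of 16 mice, 14 received a spinal cord injury (SCI), a lateral compression of the cord to 0.25 mm at vertebral levels T8-9, and 2 were left uninjured and untreated (Uninjured Control). From 2 wk after injury, for 4 wk, 7 injured mice received daily intraperitoneal atorvastatin at 10 mg/kg (SCI + Atorvastatin) and the other 7 received the carrier alone (SCI + Vehicle), and the tissue was taken at 6 wk per the labels. The injured groups therefore share the injury and the carrier, and the controls differ from both in injury and in injections. The study's methods also have the controls younger than the injured mice when the tissue was taken, so that injury, injections and age cannot be told apart in any comparison with control. Each library is 1 mouse.

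Netrin-1, the secreted product of Ntn1, attracts growth cones through DCC and repels them when an UNC5 receptor takes part. Neogenin, encoded by Neo1, is the close relative of DCC and also binds repulsive guidance molecules. UNC5 proteins and DCC are known as dependence receptors, which can trigger cell death when no netrin is bound. Ntng1 and Ntng2 encode netrin-G proteins, which are anchored to the membrane by a lipid and bind partners on the opposite side of a synapse instead of DCC or UNC5. In the adult cord netrin-1 is known from neurons and oligodendrocytes.

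Libraries held 14823292 to 25579826 counts. At these depths 3 counts, used here as the floor for a gene at 0, equal 0.117 to 0.202 CPM (counts-per-million, scaled with TMM factors of edgeR). The control libraries stood apart from the rest and from each other. They held counts for 12356 and 12732 genes, against 16399 to 19338 genes in the injured mice. Of 8 liver genes, 7 were lower in both injured groups (edgeR calls). Of all genes tested, 29.8% were called in either direction in SCI + Vehicle and 38.9% in SCI + Atorvastatin. Alb had 60169 and 10471 counts in control replicates 1 and 2 against 0 to 81 in the injured mice. The summed level of the 8 genes was 5637 and 1806 CPM in the controls, 1056 to 1228 in SCI + Vehicle and 1020 to 1333 in SCI + Atorvastatin. Trf, the gene of the list that was not called and that oligodendrocytes also express, had 15892 to 34271 counts in the injured mice. Of 10783 genes with counts in both controls, after genes with low mean counts there were left out, 11.5% differed over 4-fold between these 2 mice. The differences of the 10 genes from control were therefore also computed with 1 control left out. The part of these library differences in the member values was not tested.

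Levels of different genes are compared here in TPM, per transcript length. In the injured cord Neo1 was the highest of the family, at a TPM of 37.5 ± 4.02 (SD, n = 7) in SCI + Vehicle and 39.0 ± 3.79 in SCI + Atorvastatin, followed by Unc5b at 24.6 ± 4.88 and 25.1 ± 4.76. Unc5a, Ntng1 and Ntng2 had mean TPM values between 16.5 and 22.4 in both groups. Dcc, Unc5d and Ntn4 were lowest, with mean TPM values of 5.29 to 6.94. Neighbours in this order had overlapping TPM ranges throughout SCI + Vehicle. In SCI + Atorvastatin the ranges were apart at 2 steps of the order only, between Ntn1 (13.2 to 19.4) and Unc5c (8.68 to 12.2) and between Unc5c and Dcc (3.83 to 8.19). Ntn1 stood above Unc5c in mean TPM after atorvastatin (16.1 against 10.2) and below it after the carrier (11.6 against 13.7).

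**Figure D1:**
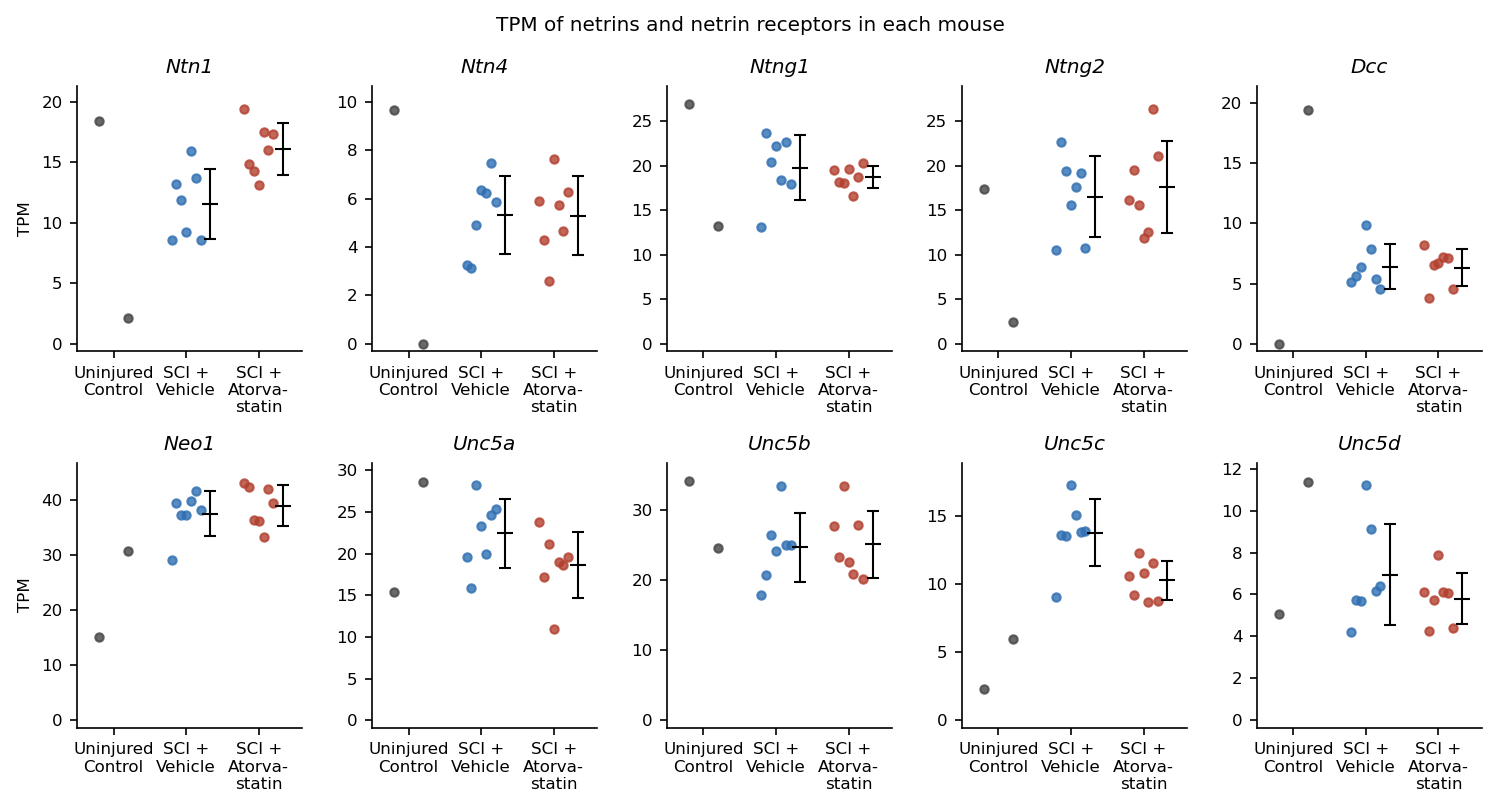
TPM (y axis, linear) of each of the 10 genes in every mouse, with 1 point per mouse and, for the injured groups, the mean and SD of 7 mice as a bar beside the points. The 2 control points lie far apart for Ntn1 (18.4 and 2.14), Ntn4 (9.66 and 0) and Dcc (0 and 19.4), whereas Unc5c in all 14 injured mice (8.68 to 17.2) lies above both controls (2.29 and 5.98).

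The first question was how the family differed between injured and uninjured cord. Neo1 rose in both injured groups, Unc5b fell in both, and Unc5c was higher in both than in either control mouse. A gene was called when its fold change passed 25% (0.322 on the log2 scale) with a Benjamini-Hochberg adjusted p below 0.05 over all genes in edgeR's quasi-likelihood test. In SCI + Vehicle 3 of the 10 genes passed these limits against a background of 29.8% of all genes tested, and in SCI + Atorvastatin 3 of 10 passed against 38.9%. Without Unc5c, which the study had also listed as changed against control, 2 of the remaining 9 were called in each comparison, 1 upward and 1 downward. The shares are near the background. The 10 genes had a median log2 fold change of 0.04 after the carrier and 0.12 after atorvastatin, beside 0.17 and 0.21 over all genes tested. Both comparisons use the same 2 control mice and are not independent.

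Among the receptors, Neo1 (GRCm38 chr9:58874687-59036441, minus strand) measured 62.0 and 97.8 CPM in the controls. In SCI + Vehicle it ranged from 104 to 130 CPM with a median of 117, and in SCI + Atorvastatin from 104 to 133 with a median of 122. Every injured mouse was above both controls. The log2 fold change was 0.55 (SE 0.165, edgeR adjusted p = 0.0283) in SCI + Vehicle and 0.60 (SE 0.161, edgeR adjusted p = 0.0138) in SCI + Atorvastatin. Without control replicate 1 these values were 0.26 and 0.31 and were no longer called, without control replicate 2 they were 0.92 and 0.96 and were called, and without SCI + Vehicle replicate 6 the call in that group also ended, with a log2 fold change still above 0. On the TPM scale, which also takes the transcripts' lengths into account, 1 injured mouse (29.1) fell below the higher control (30.7). The files differ for Neo1 in control replicate 1, the mouse the call depends on. Neo1 had 4.05 CPM per TPM there, against 3.14 in control replicate 2 and 2.82 to 3.73 in the injured mice. In ratios to TPM, here and below, CPM was taken before TMM scaling. The ratio was not off for Neo1 alone in this library. Unc5a and Unc5b were also above their injured range there and Ntng2 below it, while Ntn1, Ntn4, Ntng1, Unc5c and Unc5d were inside.

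Unc5b (chr10:60762593-60831581, minus strand), a repulsive receptor that blood vessels also carry, measured 93.4 and 99.2 CPM in the controls. It ranged from 45.5 to 72.7 CPM in SCI + Vehicle, with a median of 60.5, and from 49.0 to 80.2 in SCI + Atorvastatin, with a median of 54.6. All 14 injured mice lay below both controls. The log2 fold change was -0.72 (SE 0.164, edgeR adjusted p = 0.00777) in SCI + Vehicle and -0.68 (SE 0.171, edgeR adjusted p = 0.0101) in SCI + Atorvastatin, and it was called with either control left out (-0.76 and -0.72 without control replicate 1, -0.68 and -0.64 without control replicate 2). The files disagree for this gene in control replicate 2, which had 3.99 CPM per TPM against 2.70 in control replicate 1 and 2.15 to 2.68 in the injured mice. In TPM the controls, at 34.1 and 24.6, overlapped the injured mice, at 17.8 to 33.4, and limma on log2(TPM + 1) did not call it. Of 6 endothelial markers, 0 passed the limits in SCI + Vehicle (1 at an unadjusted p below 0.05 in edgeR) and 2 rose in SCI + Atorvastatin. The shares over all genes were 29.8% and 38.9%. The marker sums were 265 and 219 CPM in the controls, 137 to 274 in SCI + Vehicle and 212 to 324 in SCI + Atorvastatin. The median log2 fold change of these markers was 1.26 and 1.56 without control replicate 1, and -0.13 and 0.08 without control replicate 2. Their part in the Unc5b difference was not tested.

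Neo1 and Unc5b are the called genes whose upstream sequence lies outside the gene in both annotations, so the 250 bases before their RefSeq starts (GRCm38.p6) are shown, read along the gene's strand, with CG dinucleotides in capitals.
Neo1, chr9:59036442-59036691, minus strand: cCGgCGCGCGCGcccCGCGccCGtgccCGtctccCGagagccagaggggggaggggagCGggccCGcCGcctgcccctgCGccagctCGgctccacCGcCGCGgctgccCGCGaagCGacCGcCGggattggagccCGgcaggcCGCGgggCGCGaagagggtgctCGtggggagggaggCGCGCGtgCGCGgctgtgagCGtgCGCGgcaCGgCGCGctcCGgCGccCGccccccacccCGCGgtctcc
Unc5b, chr10:60831582-60831831, minus strand: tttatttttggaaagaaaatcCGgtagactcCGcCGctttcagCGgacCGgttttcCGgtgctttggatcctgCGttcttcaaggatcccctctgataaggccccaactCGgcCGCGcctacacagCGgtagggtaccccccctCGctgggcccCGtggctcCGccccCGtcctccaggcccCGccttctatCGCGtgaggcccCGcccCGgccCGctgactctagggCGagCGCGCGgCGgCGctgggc
The receptor that rose and the receptor that fell both have CG-rich windows. Neo1 holds 45 CG dinucleotides and is 83.2% G or C, and Unc5b holds 27 and is 66.8%, beside medians of 6 and 52.4% over 32851 promoters of this length in the same table. The GC box GGGCGG, whose letters include 1 CG, was found 1 time for Neo1 and 2 times for Unc5b on either strand, and 32.7% of all promoters hold it. Unc5a, which was not called, also holds 25 CG dinucleotides, and so these features did not follow the calls. The table held 7 of the 10 genes and none for Ntn1, Dcc and Unc5d, and the Unc5c window lies inside the GENCODE gene and is not printed.

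Unc5c (chr3:141465216-141834924, plus strand) encodes a receptor that mediates repulsion by netrin-1 and takes part in guiding corticospinal and commissural axons. It had 186 and 612 counts in the controls, or 9.34 and 27.7 CPM. In SCI + Vehicle it ranged from 43.3 to 67.9 CPM with a median of 54.9, and in SCI + Atorvastatin from 33.5 to 53.3 with a median of 37.7. All injured mice were above both controls, as they also were in TPM. The fitted log2 fold change was 1.54 (SE 0.351) in SCI + Vehicle, a 2.92-fold higher level, and 1.14 (SE 0.356), or 2.21-fold, in SCI + Atorvastatin. The controls themselves differed 2.97-fold, so the size depends on which is used. It was 0.97 without control replicate 1 and 2.54 without control replicate 2 in SCI + Vehicle, and 0.56 and 2.12 in SCI + Atorvastatin. The direction was upward in all 4 of these fits.

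The 3 genes for which all injured mice lay on 1 side of both controls in CPM were Neo1, Unc5b and Unc5c. Over all genes tested, 32.7% showed such a separation, close to the 3 of 10 here.

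Dcc, the attractive netrin-1 receptor, could not be placed relative to control. It had 102 counts in control replicate 1 and 1878 in control replicate 2, or 5.12 and 85.1 CPM, and all 14 injured mice, at 19.4 to 41.0 CPM, lay between them. The log2 fold changes of -0.66 (SE 0.638, edgeR adjusted p = 0.474) and -0.63 (SE 0.655, edgeR adjusted p = 0.483) were not called. The TPM file lists Dcc at 0 in control replicate 1, where the count file has 102, so the files disagree for this mouse.

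Unc5a (chr13:54949411-55006018, plus strand) and Unc5d (chr8:28646717-29219636, minus strand) are the other repulsive receptors. Unc5a measured 33.4 and 41.5 CPM in the controls and 18.4 to 42.6 in the injured mice, with log2 fold changes of -0.06 (SE 0.214) and -0.26 (SE 0.241). These were -0.21 and -0.41 without control replicate 1 and 0.10 and -0.11 without control replicate 2. The files differ for Unc5a too, with 2.14 and 1.43 CPM per TPM in control replicates 1 and 2 against 1.48 to 1.91 in the injured mice. Its exons overlap those of Hk3 on the opposite strand, and the strand setting of the counting is not stated. Unc5d measured 24.3 and 56.9 CPM in the controls and 18.1 to 44.7 in the injured mice. Its log2 fold changes were -0.53 (SE 0.341, edgeR adjusted p = 0.269) and -0.71 (SE 0.313, edgeR adjusted p = 0.0970). They were -1.01 and -1.20, both called, without control replicate 1 and 0.21 and 0.02 without control replicate 2. For both genes the levels of injured and control mice overlapped.

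No ligand was called against control. Ntn1 (chr11:68209364-68400823, minus strand) had 928 and 100 counts in the controls, or 46.6 and 4.53 CPM, a 10.3-fold difference, and every injured mouse lay between them. The log2 fold change was -0.03 (SE 0.582, edgeR adjusted p = 0.988) in SCI + Vehicle and 0.48 (SE 0.594, edgeR adjusted p = 0.565) in SCI + Atorvastatin. Ntn4 (chr10:93640681-93747207, plus strand), a netrin of basement membranes, had 187 and 0 counts in the controls and 60 to 187 in the injured mice. Against control replicate 2 alone, its mean was at least 39.4-fold higher in SCI + Vehicle and at least 37.7-fold higher in SCI + Atorvastatin, taking 3 counts of that library as the floor, whereas control replicate 1, at 9.39 CPM, was above every injured mouse.

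The netrin-G genes were the ligands with the closest controls. Ntng1 (chr3:109780040-110144011, minus strand) measured 38.9 and 26.2 CPM in the controls and 26.9 to 42.9 in the injured mice, with log2 fold changes of 0.11 (SE 0.221) and 0.12 (SE 0.201), or 0.42 and 0.43 without control replicate 1 and -0.15 in both without control replicate 2. Ntng2 (chr2:29194541-29253005, minus strand) measured 8.03 and 8.52 CPM in the controls, and 6 of 7 mice in each injured group were higher than both. Its log2 fold change of 0.41 (SE 0.412, edgeR adjusted p = 0.497) in SCI + Vehicle and 0.65 (SE 0.374, edgeR adjusted p = 0.199) in SCI + Atorvastatin was not called. It stayed between 0.37 and 0.68 with either control left out. The count and TPM files also differ for this gene. In control replicate 2 Ntng2 had 3.52 CPM per TPM against 0.551 to 0.869 in the injured mice, and its exons overlap those of 6530402F18Rik on the same strand.

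**Figure D2:**
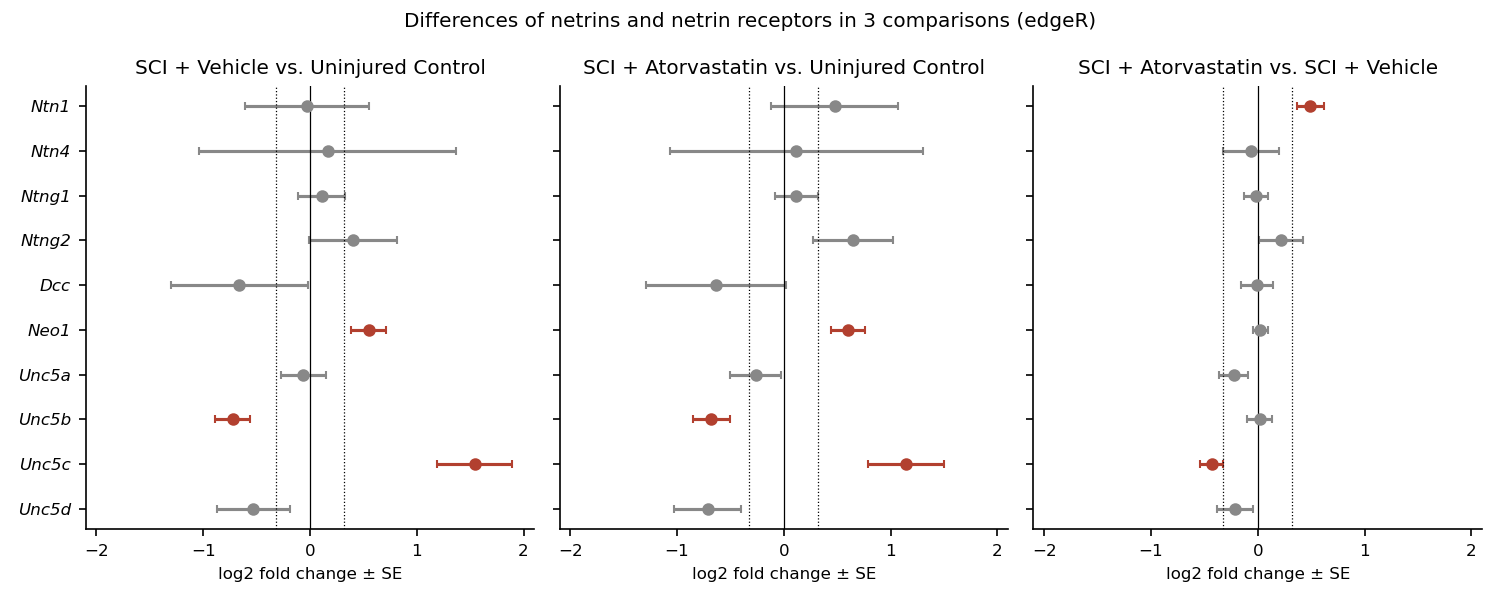
Log2 fold change (x axis) and its SE for each gene (y axis) in the 3 comparisons, with red for genes past the call limits of that comparison and dotted lines at a 25% change. Neo1 and Unc5c lie to the right and Unc5b to the left in both comparisons with control, and Ntn1 (0.49) and Unc5c (-0.43) are the red points between the treatments. The family was chosen on Unc5c between the treatments, so red there marks the limits and is no test.

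With control replicate 1 left out, 6 of the 10 genes passed the limits in both comparisons with control, against 47.7% of all genes in SCI + Vehicle and 60.3% in SCI + Atorvastatin. Ntn1, Ntn4, Dcc and Unc5d were among them and Neo1 was not. With control replicate 2 left out, 5 genes passed in SCI + Vehicle and 4 in SCI + Atorvastatin, against 48.5% and 61.1% of all genes. Dcc lay at -1.57 and -1.55 against control replicate 2 alone and at 2.48 and 2.49 against control replicate 1 alone. Ntn1 lay at 2.46 and 2.97 against control replicate 2 alone and at -0.90 and -0.40 against control replicate 1 alone. These fits hold 1 control mouse, whose spread is assumed to equal that of the injured group. Of the genes other than Unc5c, Unc5b was past the limits with both controls and with each alone.

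**Figure D3:**
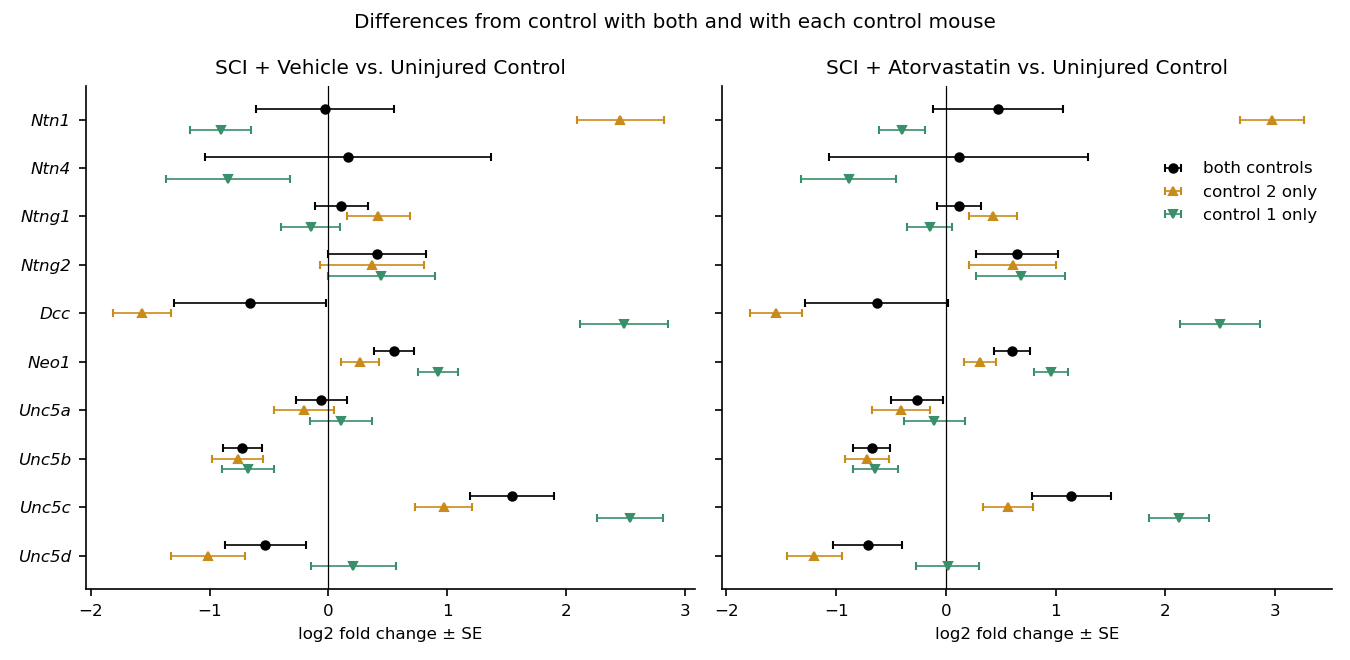
Log2 fold change and SE (x axis) of each gene against both control mice (circles), control replicate 2 alone (upward triangles) and control replicate 1 alone (downward triangles). Dcc and Ntn1 fall on opposite sides of 0 with the 2 control mice, Unc5b stays near -0.7 with either, and Ntn4 against control replicate 2 alone is left out because that mouse had 0 counts.

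The second question was whether atorvastatin altered the family in injured cord. Unc5c was lower and Ntn1 higher in SCI + Atorvastatin than in SCI + Vehicle, while the other 8 genes differed little. The limits for this comparison were a 25% change and an unadjusted p below 0.001, which 0.106% of all genes tested passed (17 of 16091), and 2 of the 10 genes did. Because the family was chosen with this comparison known, nothing is read from that count. No gene of the 16091 had an adjusted p below 0.05 in edgeR or in DESeq2, and 1132 and 1139 had an unadjusted p below that value.

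Unc5c was 0.742-fold of the vehicle level (log2 fold change -0.43, SE 0.108). The levels ran from 33.5 to 53.3 CPM after atorvastatin and from 43.3 to 67.9 after the carrier. Of the atorvastatin mice 5 of 7 were below every vehicle mouse, and all 7 were below the vehicle median of 54.9. The groups overlapped because SCI + Atorvastatin replicate 3 (53.3 CPM) lay above SCI + Vehicle replicates 1, 2 and 3 (43.3, 53.0 and 51.6 CPM) and SCI + Atorvastatin replicate 4 (43.5 CPM) above SCI + Vehicle replicate 1.

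Ntn1 was 1.41-fold of the vehicle level (log2 fold change 0.49, SE 0.127). The levels ran from 26.6 to 41.4 CPM after atorvastatin, with a median of 34.2, and from 18.7 to 30.5 after the carrier, with a median of 25.6. Of the atorvastatin mice 6 of 7 were above every vehicle mouse, and SCI + Atorvastatin replicate 4 (26.6 CPM) was the exception. No gene of the family had groups without overlap, which 0.087% of all genes tested showed.

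Leaving out 1 mouse at a time gave log2 fold changes between 0.43 and 0.55 for Ntn1 and between -0.51 and -0.37 for Unc5c. Most of these fits did not pass the limits of this comparison. Ntn1 passed in 3 of the 14 and Unc5c in 4. Of 9 other settings of the fit, Ntn1 passed in 3 and Unc5c in 5. The family was chosen on Unc5c in this comparison. These counts therefore describe how the fits move and are no test of either gene.

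Unc5a and Unc5d were lower by 0.23 (SE 0.140) and 0.21 (SE 0.170) on the log2 scale in SCI + Atorvastatin, and Ntng2 was higher by 0.22 (SE 0.205). Dcc, Neo1, Unc5b, Ntng1 and Ntn4 lay between -0.06 and 0.02, with SE from 0.0711 for Neo1 to 0.264 for Ntn4. These 8 values were all within 2 SE of 0, and their ranges overlapped between the groups. For Neo1, whose SE was smallest, the mean was 120 ± 9.15 CPM (SD, n = 7) after atorvastatin and 118 ± 8.68 after the carrier.

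No mouse held 1 rank across the whole family, though some were at an end of their group for several genes. SCI + Vehicle replicate 1, the library with counts for the most genes (19338), was lowest of its group for Ntng1, Ntng2, Neo1, Unc5b, Unc5c and Unc5d. SCI + Vehicle replicate 4, the library with the fewest counts, was highest for Dcc, Unc5c and Unc5d, and its Unc5d level was 44.7 CPM against a group median of 25.3.

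Over the 14 injured mice, with each group's mean removed, the genes whose log2 CPM followed Unc5c most closely among 13999 genes were Tnfrsf21 (Pearson r = 0.88), Map2k1 (0.88), E330009J07Rik (0.87), Rsph9 (0.86) and Zfp579 (0.86). Tnfrsf21 encodes a death receptor and Map2k1 a kinase of the MAP kinase cascade. Without the 2 mice farthest from the median of Unc5c, SCI + Atorvastatin replicate 3 and SCI + Vehicle replicate 4, these r values were 0.79, 0.87, 0.80, 0.82 and 0.67. Within the family Unc5b followed Unc5c most closely (r = 0.63, position 215 of 13999), then Unc5d (0.55), Neo1 (0.44) and Dcc (0.44), and Ntn1 had r = -0.26. This order did not hold without the same 2 mice, where Neo1 had r = 0.63, Ntng1 and Unc5b 0.62, Unc5d 0.57 and Dcc -0.09. The r values also differed between SCI + Atorvastatin alone and SCI + Vehicle alone. They were 0.76 and 0.48 for Unc5b, 0.13 and 0.93 for Unc5d, and 0.24 and 0.67 for Neo1. Ntng1 had -0.50 and 0.76, and Ntn4 -0.65 and 0.50. The points share library, dissection and depth, so these are descriptions with no p.

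Other genes of the netrin pathway were counted from lists chosen with earlier results of these mice known. Of 13 measured ligands and co-ligands, 3 rose and 1 fell in SCI + Vehicle, and 5 rose and 2 fell in SCI + Atorvastatin. Of all genes tested 29.8% and 38.9% were called in these comparisons, and none of the 3 lists is read as differing from that share. Flrt3, a ligand of UNC5 receptors, had 126 and 186 counts in the controls and 320 to 560 in the injured mice, with a log2 fold change of 1.36 (SE 0.328, edgeR adjusted p = 0.0108) in SCI + Vehicle and an edgeR adjusted p of 0.00527 in SCI + Atorvastatin. Flrt1, its relative, moved the other way, with 2880 and 3503 counts in the controls and 611 to 1389 in the injured mice (log2 fold changes -1.68 and -1.67, SE 0.227 and 0.116). Flrt2 passed the limits in SCI + Atorvastatin (log2 fold change 1.07, SE 0.270) and not in SCI + Vehicle, and its difference between the treatments did not pass. Lrrc4, the partner of netrin-G2, rose by 0.74 (SE 0.237) and 0.66 (SE 0.191) on the log2 scale, and its relative Lrrc4b fell by 0.69 (SE 0.164) in SCI + Atorvastatin. Draxin, a secreted antagonist that binds netrin-1 and DCC, had 0 counts in both controls and 4 to 86 in the injured mice, at least 12.2-fold higher in SCI + Vehicle and at least 16.3-fold higher in SCI + Atorvastatin, with 3 counts per control library as the floor.

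Of 12 measured receptor partners, 1 rose and none fell in SCI + Vehicle, and 3 rose and none fell in SCI + Atorvastatin, beside the same 29.8% and 38.9% of all genes. Adam17, a protease that sheds membrane proteins, had 197 and 255 counts in the controls and 561 to 1525 in the injured mice. Its log2 fold changes were 2.12 (SE 0.261) and 2.40 (SE 0.208), the furthest of this list. In SCI + Atorvastatin Lrig2, which holds back the shedding of neogenin by Adam17, rose by 0.58 (SE 0.163) on the log2 scale and Adam10 by 0.39 (SE 0.126). The Adam10 call ended without control replicate 1 (0.16).

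Of 28 intracellular signalling genes, 1 rose and 6 fell in SCI + Vehicle, and 1 rose and 7 fell in SCI + Atorvastatin, again beside 29.8% and 38.9% of all genes. Ptk2, the focal adhesion kinase that binds DCC, rose by 0.55 (SE 0.142) and 0.60 (SE 0.123) on the log2 scale. Tubb3, a neuronal tubulin, fell by 0.74 (SE 0.144) and 0.83 (SE 0.0786), the kinase Pak1 by 0.53 (SE 0.107) and 0.60 (SE 0.0997), and the actin regulator Wasl by 0.68 (SE 0.191) and 0.74 (SE 0.153). Pitpna, a lipid transfer protein, fell by 0.41 (SE 0.125) and 0.45 (SE 0.106), and Enah, which extends actin filaments, by 0.45 (SE 0.148) and 0.59 (SE 0.109). No gene of the 3 lists passed the edgeR limits between the treatments, where 1 ligand, 2 receptor partners and 2 signalling genes had an unadjusted p below 0.05. Without control replicate 1 the ligand list had medians (log2 fold change) of 0.89 for SCI + Vehicle and 0.83 for SCI + Atorvastatin. Without control replicate 2 the ligand medians were 0.31 and 0.38, in the same order. The signalling medians were -0.18 and -0.24 without control replicate 1, and -0.03 and -0.03 without control replicate 2. The partner medians were -0.08 and -0.10 without control replicate 1, and 0.29 and 0.30 without control replicate 2. Lrrc4 in both groups, and Ptk2, Wasl and Pitpna in SCI + Vehicle, were not called without control replicate 2. Flrt3, Flrt1, Adam17, Tubb3 and Pak1 were called with either control left out in both groups.

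**Figure D4:**
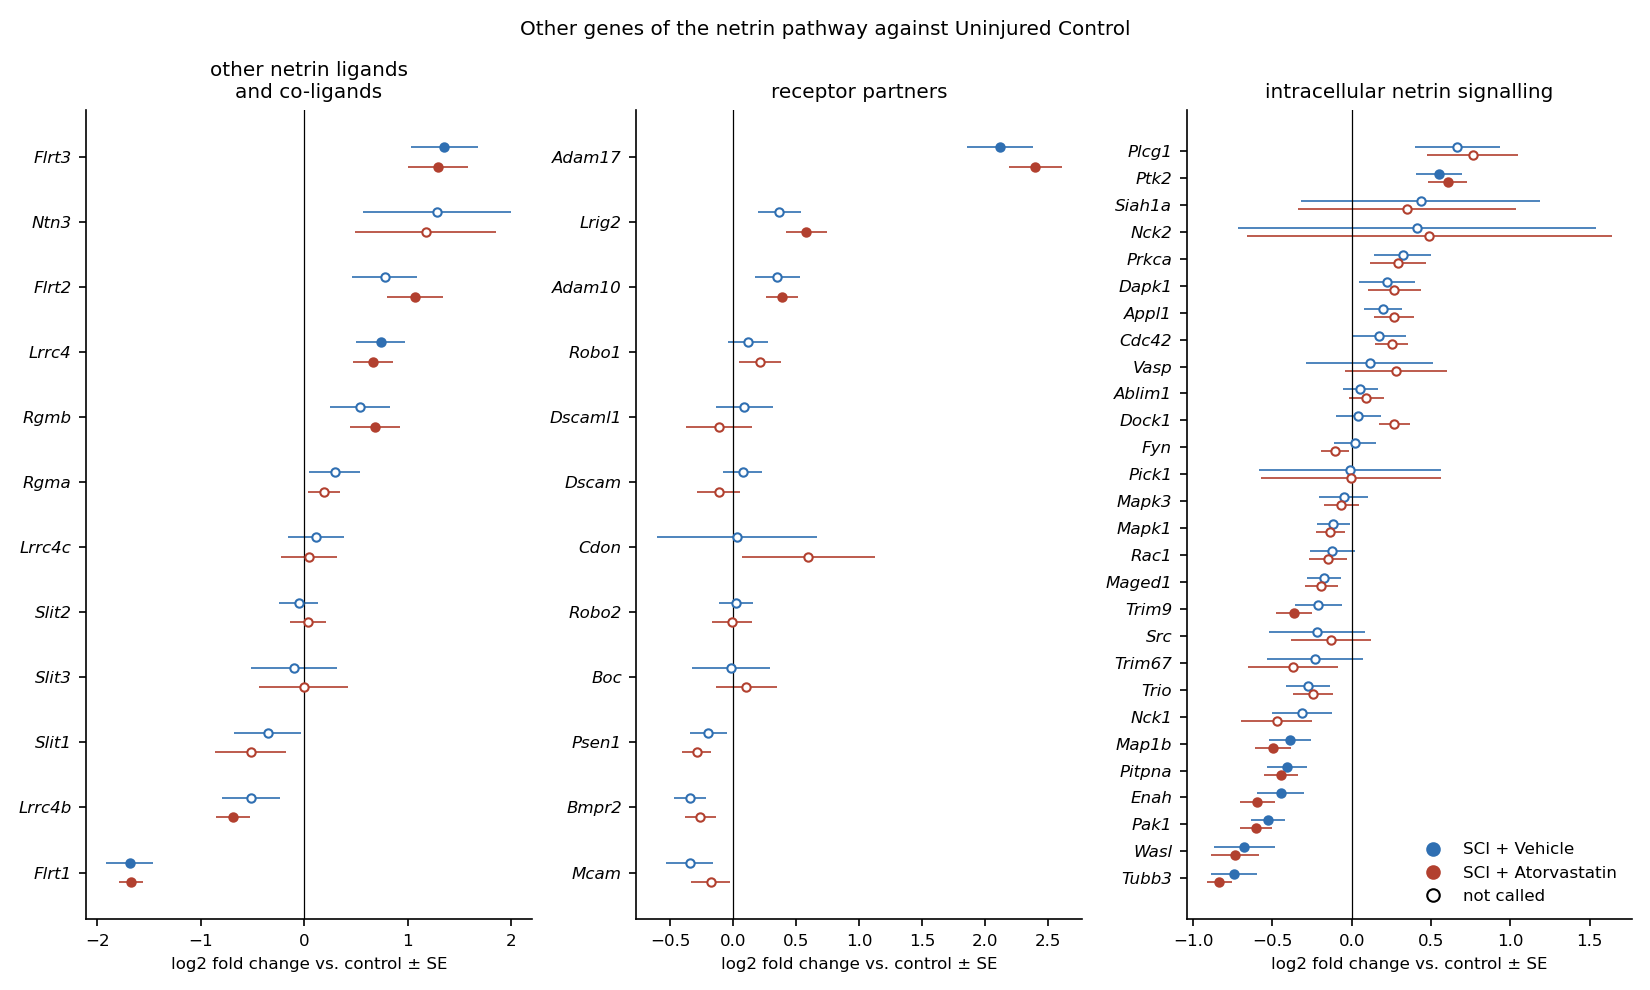
Log2 fold change against control and SE (x axis) of the measured genes of the 3 pathway lists (y axis) in SCI + Vehicle (blue) and SCI + Atorvastatin (red), with filled points for genes past the call limits. Flrt3 and Adam17 stand at the top of their lists and Flrt1 and Tubb3 at the bottom, and Draxin is left out because both controls had 0 counts.

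Cell type markers were compared with the same controls, where 29.8% of all genes were called in SCI + Vehicle and 38.9% in SCI + Atorvastatin. No marker list is read as differing from those shares by its counts. In whole cord, fewer cells of a type and less RNA per cell cannot be told apart. Of 10 neuronal markers 7 fell in SCI + Vehicle and 8 in SCI + Atorvastatin, and their summed level was 9233 and 10230 CPM in the controls, 5129 to 8270 in SCI + Vehicle and 4879 to 6246 in SCI + Atorvastatin. Of 6 motor neuron markers 2 and 3 fell, from sums of 236 and 301 CPM to 116 to 174 and 108 to 129, with Isl1 and Mnx1 at 0 in control replicate 1. The median log2 fold change of this list in SCI + Vehicle was -1.28 without control replicate 1 and 0.21 without control replicate 2. In SCI + Atorvastatin it was -1.57 and -0.05. Of 6 astrocyte markers 4 rose in each comparison, from 6551 and 7836 CPM to 11368 to 12909 and 12312 to 13544. Of 6 microglia or macrophage markers 4 and 5 rose, from 82.6 and 144 CPM to 546 to 803 and 699 to 908, with Cd68 at 0 in control replicate 1 and P2ry12 at 0 in control replicate 2. Of 5 oligodendrocyte precursor markers 3 and 4 rose, from 198 and 332 CPM to 375 to 466 and 446 to 519. The sum of 8 oligodendrocyte markers overlapped between all groups, at 14137 and 18470 CPM in the controls, 14238 to 19038 in SCI + Vehicle and 13195 to 15107 in SCI + Atorvastatin, with 1 up and 1 down in SCI + Vehicle and 1 up and 3 down in SCI + Atorvastatin. The median log2 fold change of the oligodendrocyte list was -0.38 and -0.39 without control replicate 1, and -0.001 and -0.04 without control replicate 2. With either control left out, the neuronal list kept a median between -0.69 and -0.53 in both groups. The astrocyte list kept 0.50 to 0.61, the microglia or macrophage list 2.52 to 3.05 and the precursor list 0.69 to 1.57. The part of these markers in the differences of Neo1, Unc5b and Unc5c was not tested.

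Between the treatments no marker passed the edgeR limits, and 6 fibroblast or meningeal, 2 motor neuron and 1 oligodendrocyte precursor markers had an unadjusted p below 0.05. The 6 fibroblast or meningeal markers, all higher in SCI + Atorvastatin with a median log2 fold change of 0.94, had sums of 646 to 1906 CPM there and 136 to 1095 in SCI + Vehicle, against 271 and 259 in the controls. The 10 neuronal markers were all lower, with a median of -0.15. Of the remaining lists, the sum of 6 ependymal markers was 54.0 to 67.6, 46.5 to 69.2, and 40.0 and 52.1 CPM in SCI + Atorvastatin, SCI + Vehicle and the controls. The sum of 6 dorsal root ganglion markers was 39.2 CPM in SCI + Vehicle replicate 3, 1.09 to 11.3 in the other 13 injured mice and 0 in both controls. The part of these markers in the Ntn1 and Unc5c differences was not tested.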

How the data were processed

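Total RNA from 16 mice was sequenced by the authors with a stranded, ribosome-depleted kit (SMARTer Stranded Total RNA-seq Pico v2). The submitters' processing notes name Trimmomatic 0.38, FastQC 0.12.1, STAR 2.5.4b and RSEM 1.3.1. The authors deposited 2 tables of the whole series. One holds whole-number counts per gene, not normalized, and the other TPM values, which the authors scaled by transcript length and library. The strand setting and the step that made the counts whole are not given in the sources used here. The study's methods give a later day of tissue collection for the injured mice than the labels, which are used here.

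Counts were compared with edgeR 4.0.16 (R 4.3.3) by TMM scaling and quasi-likelihood tests, each pair of groups alone, on the 16091 genes whose average TPM exceeded 1 in any group, and adjusted over all of them. Calls needed a 25% change, with an adjusted p below 0.05 against control or an unadjusted p below 0.001 between treatments. CPM (counts-per-million) values were made after TMM scaling of all 16 libraries. Alternatives were DESeq2 1.42.0, its size factors in edgeR, 1 fit of all 3 groups, other gene filters, limma 3.58.1 on log2(TPM + 1) and log2(TPM + 0.1), voom with group quality weights, a replicate block and each mouse left out. The procedure was tested on simulated data, with 200 genes changed by 2 on the log2 scale. In edgeR 59.5% of these had an adjusted p below 0.05 for SCI + Vehicle against control and 60.5% for SCI + Atorvastatin against control. Between the treatments it was 99%. A gene not called against control may therefore still differ.

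The family, the pathway lists and the marker lists were chosen with earlier results of these data known. Named in the text are the 10 members, up to 4 called genes with the smallest p per direction of each pathway list against control, and the 5 genes most like Unc5c among those with a mean of at least 50 counts. Alb, Trf and the markers at 0 were named after their values were seen, and so were the genes whose calls ended or held with a control left out. Positions are from GENCODE M21 (GRCm38), promoters from RefSeq (GRCm38.p6). No counts or TPM columns were left unmapped, and no 2 libraries of the same group agreed within sampling noise (43 pairs). Pairs across groups were not compared. Counting floors cover counting error only. The result of 1 marker list is not reported here.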

Additional observations from a re-analysis of the deposited data

How the results depend on the processing

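With 2 control mice, and with differences between treatments that no adjusted test passed, the values below limit what can be said of single members. Against control, 3 members passed in DESeq2, in edgeR with DESeq2 size factors, in 1 fit of all 3 groups and under both other gene filters, and 2 (Neo1 and Unc5c) in limma on TPM. Of all 16091 genes, 6000 were called in DESeq2 in SCI + Vehicle and 7207 in SCI + Atorvastatin. In the same order it was 4852 and 6308 with DESeq2 size factors and 6586 and 7126 in 1 fit of all 3 groups. Limma on log2(TPM + 1) called 4452 and 6316. With voom and group quality weights 0 members passed in either comparison, beside 131 and 146 of all 16091 genes. The replicate numbers of the labels were also tried as a replicate block, which gave 0 members in each of the 3 comparisons. Against control only replicates 1 and 2 have a mouse in both groups. The other injured mice do not bear on that difference, so the block decides little there. Same-numbered injured mice had correlations of -0.15 to 0.087 and 0 of 7 correlated best with their own number. The labels do not say whether mice with the same number share anything else, and these correlations cannot decide it. Leaving out 1 mouse gave 2 to 6 members in SCI + Vehicle and 3 to 6 in SCI + Atorvastatin. Without control replicate 2 the Dcc log2 fold change turned from -0.66 to 2.48 and from -0.63 to 2.49, against -1.57 and -1.55 without control replicate 1, and Ntn1 in SCI + Vehicle was 2.46 without control replicate 1 and -0.90 without control replicate 2. Between treatments, 2 members passed in DESeq2, with its size factors and with no gene filter, 1 (Unc5c) with a TPM above 1 in every group and with voom weights, 0 in the fit of 3 groups and 0 in limma on log2(TPM + 1) and on log2(TPM + 0.1), and 0 to 2 with 1 mouse left out. Because the family was chosen on Unc5c in this comparison, nothing is read from the counts between treatments. The causes of the shifts between settings were not tested. Over all genes, calls in SCI + Vehicle went from 4789 to 131 with voom weights, 27 with the replicate block and 2394 with a TPM above 1 in every group, and those in SCI + Atorvastatin from 6260 to 146, 0 and 3693, with 1377 genes at an unadjusted p below 0.05 in edgeR with the block. The 17 calls between treatments became 37 in DESeq2, 1 in the fit of 3 groups, 11 with a TPM above 1 in every group, and 8 with voom weights as with the block. The split of calls upward and downward in SCI + Vehicle was 3195 and 1594, against 3763 and 689 in limma on log2(TPM + 1), 15 and 116 with voom weights and 1279 and 1115 with a TPM above 1 in every group. In SCI + Atorvastatin it was 4004 and 2256, against 5078 and 1238, 18 and 128, and 1806 and 1887. On TPM the median log2 fold change of all genes was 0.49 and 0.52, against 0.17 and 0.21 on counts, and members called on both scales kept their direction.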
